A study of Mus musculus with 6 samples.

Results

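The regions described here were those of a deposited ChIP-seq list whose centre lay within 5 kb of a transcription start site (TSS). They were chosen by position alone: chromosomes 1 to 19 or X, and a distance to the nearest TSS, as the list gives it, of at most 5000 bp on either side. Of 23030 regions on these chromosomes, 509 met the rule, or 2.21% (Wilson 95% interval 2.03 to 2.41%), and of all 39096 regions in the list, 1.30%. They fell into 46 regions at 0-1 kb, 81 at 1-2 kb and 382 at 2-5 kb. The remaining 22521 regions on the same chromosomes are called the other regions. The 2 members nearest to the limit lay 4998 bp upstream of Scgb2b3 (score 102.6) and 4995 bp downstream of the start of 1700003C15Rik (6.37), and the 2 regions nearest to it from outside lay 5010 bp upstream of Crisp2 (21.7) and 5011 bp upstream of Gm13040 (172.7).

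The study targeted PHF13, named SPOC1 in its libraries, by chromatin immunoprecipitation and sequencing in testis of C57Bl/6 mice aged 5 weeks. There were 3 SPOC1 ChIP libraries, of which 2 are labelled Phf13-/- and 1 wild type, and 3 input libraries, of which 1 is labelled Phf13-/- and 2 wild type. For 1 animal, D821, the ChIP library is labelled Phf13-/- and the input library wild type, so genotype was not used. No source used here says which libraries entered the list, and the regions are not called PHF13 binding sites. The list has 0 columns of values per library, so there is no replicate error, the depth per library is unknown, and no difference could be tested against replicates; all intervals cover counting error only.

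PHF13 is a PHD finger protein that binds histone H3 methylated at its lysine K4, a mark found at active promoters. Promoters of housekeeping genes are usually rich in CpG dinucleotides, and promoters of tissue-specific genes, olfactory and vomeronasal receptors among them, often are not. LINE-1 (L1) elements and LTR retrotransposons such as intracisternal A particles (IAP) and MERVL carry promoters of their own, and germ cells hold them in check by DNA methylation, histone methylation and the piRNA pathway.

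The promoter sequences shown first belong to the highest-scoring regions within 1 kb of a TSS and to the regions closest to one. Predicted genes were left out. The base composition and the relation of region to TSS can be read from them directly. Each window runs from 250 bases before a RefSeq TSS to 50 bases after it, in build GRCm38.p6, 5′ to 3′ on the strand of the gene, with each CpG in capitals. Of 10 regions that the rule selected, 7 had a window.

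Fut8, the fucosyltransferase that adds core fucose to N-glycans, has 4 TSSs in the promoter table within a gene of 238.6 kb. The 2 TSSs with a region lay 150.8 and 172.0 kb downstream of the first. Their windows were chr12:77388614-77388913 and chr12:77409891-77410190 on the plus strand. A member covered all 300 bases of each, with scores of 24.6 and 68.6.
Fut8 TSS at 150.8 kb: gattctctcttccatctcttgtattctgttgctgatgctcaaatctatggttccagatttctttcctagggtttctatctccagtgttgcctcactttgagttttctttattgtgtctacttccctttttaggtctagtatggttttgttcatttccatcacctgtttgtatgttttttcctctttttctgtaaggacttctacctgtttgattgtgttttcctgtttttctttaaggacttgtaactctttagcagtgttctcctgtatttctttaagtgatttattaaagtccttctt
Fut8 TSS at 172.0 kb: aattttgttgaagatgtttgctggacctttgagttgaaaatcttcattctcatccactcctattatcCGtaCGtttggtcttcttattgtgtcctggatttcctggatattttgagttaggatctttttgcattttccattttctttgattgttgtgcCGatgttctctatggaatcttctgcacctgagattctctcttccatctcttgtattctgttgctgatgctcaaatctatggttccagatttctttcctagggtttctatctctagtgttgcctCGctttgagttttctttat

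Aligned without gaps, positions 1 to 111 of the window at 150.8 kb matched positions 190 to 300 of the one at 172.0 kb at 109 of 111 bases, counted from the 5′ end, with an unbroken run of 81. Runs of 24 bases from these windows recurred on either strand in 15 and 14 windows of other genes, out of 32619 in the table. For the other 5 windows shown, the number was 2 for Bckdhb, 1 for Olfr8, and 0 for Bod1, Cd209c and Tex28. Each of these Fut8 TSSs also had a member centred on an L1Md_T element upstream of it. At the TSS at 150.8 kb, an L1Md_T member with a score of 18.3 was centred 3150 bp upstream and ended 2.32 kb before the promoter region. At the TSS at 172.0 kb, an L1Md_T member with a score of 72.0 was centred 3874 bp upstream and ended 1.01 kb before the promoter region.

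Bckdhb encodes part of the enzyme complex that breaks down branched-chain amino acids. Its window, chr9:83948531-83948830 on the plus strand, was covered in full by a member with a score of 33.6, and it held 2 CpGs.
Bckdhb: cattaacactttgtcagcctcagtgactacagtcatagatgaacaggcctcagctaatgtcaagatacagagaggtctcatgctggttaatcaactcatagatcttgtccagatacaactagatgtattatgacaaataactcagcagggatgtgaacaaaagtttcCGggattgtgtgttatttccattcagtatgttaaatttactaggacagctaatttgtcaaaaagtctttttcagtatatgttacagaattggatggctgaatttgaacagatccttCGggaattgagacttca

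Cd209c encodes a C-type lectin of the DC-SIGN family. Its window, chr8:3946814-3947113 on the minus strand, had 94 bases under a member with a score of 22.5, and it held 5 CpGs.
Cd209c: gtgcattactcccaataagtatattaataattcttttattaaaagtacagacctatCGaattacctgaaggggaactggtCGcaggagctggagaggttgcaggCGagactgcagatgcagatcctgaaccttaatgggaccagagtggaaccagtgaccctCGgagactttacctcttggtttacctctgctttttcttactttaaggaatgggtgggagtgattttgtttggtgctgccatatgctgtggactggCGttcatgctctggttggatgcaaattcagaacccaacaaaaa

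The window of Tex28, a gene named for its expression in testis, was chrX:74167789-74168088 on the minus strand. It had 103 bases under a member with a score of 17.4 that was centred on an L1Md_A element 260 bp downstream of the TSS. It held 1 CpG.
Tex28: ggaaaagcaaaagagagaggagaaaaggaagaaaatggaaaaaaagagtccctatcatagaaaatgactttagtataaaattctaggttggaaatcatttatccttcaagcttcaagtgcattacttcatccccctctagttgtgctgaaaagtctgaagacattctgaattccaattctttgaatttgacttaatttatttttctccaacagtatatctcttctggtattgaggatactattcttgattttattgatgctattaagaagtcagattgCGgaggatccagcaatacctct

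For Olfr8, an olfactory receptor gene, and Bod1, which acts in chromosome biorientation at cell division, the member lay beside the window and covered 0 bases of it. The Olfr8 window, chr10:78954957-78955256 on the plus strand, held 0 CpGs. The Bod1 window, chr11:31671813-31672112 on the minus strand, held 24. The Bod1 member (score 45.7) was centred 627 bp downstream of the TSS, in the first intron, on a (TAGA)n repeat.
Olfr8: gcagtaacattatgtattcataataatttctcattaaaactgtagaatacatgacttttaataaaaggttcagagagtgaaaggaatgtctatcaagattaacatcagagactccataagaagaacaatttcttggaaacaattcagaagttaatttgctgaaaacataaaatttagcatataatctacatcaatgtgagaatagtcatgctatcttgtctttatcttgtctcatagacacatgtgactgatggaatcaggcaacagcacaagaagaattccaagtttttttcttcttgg
Bod1: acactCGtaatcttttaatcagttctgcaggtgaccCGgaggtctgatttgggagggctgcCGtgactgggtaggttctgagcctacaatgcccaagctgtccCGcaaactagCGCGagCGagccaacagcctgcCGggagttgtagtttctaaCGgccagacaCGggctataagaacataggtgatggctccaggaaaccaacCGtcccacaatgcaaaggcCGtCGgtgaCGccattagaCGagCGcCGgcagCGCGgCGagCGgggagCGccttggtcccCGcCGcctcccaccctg

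Over the whole promoter table, windows under regions were poor in GC and in CpG. In all, 35 windows of 33 genes had at least 1 base under a region of the list, 14 of them under a member, and 8 were covered in full. The 35 windows had a median GC content of 38.7% (quartiles 36.0 and 47.2%) and a median of 2 CpGs, against 53.0% (46 and 61.7%) and 7 CpGs for all 32619 windows. The 654 windows within 5 kb of a region centre had medians of 46.3% and 3 CpGs. The GC box GGGCGG, searched on both strands, stood in 2.86% of the 35 windows, 14.7% of the 654 and 35.9% of all windows. CCAAT, on both strands, stood in 65.7, 46.6 and 37.6%, and TATAAA in 20, 20.2 and 13.7%. The tandem TAGATAGA stood in 3 of the 35 windows (8.57%), 1.22% of the 654 and 0.518% of all. The 3 were those of Olfr119, Vmn1r241 and Vmn1r251. The 35 windows are not independent, since genes of a family were counted separately. Among them were Vmn1r137, Vmn1r138, Vmn1r240, Vmn1r241, Vmn1r251 and Vmn1r257, vomeronasal receptor genes with 35.3 to 37.7% GC and all with CCAAT. The windows of Gm35667 overlapped each other. These motif counts describe letters in the windows and not bound sites, and GC content itself moves with them. Of the windows shown, Bod1 was the one whose composition was like the table's CpG-rich end, with 60.3% GC, and Olfr8 had the lowest GC content, 31.0%.

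The closer to a TSS, the fewer regions there were. By the distance in the list, there were 46 regions per kb of distance at 0-1 kb, 81 at 1-2 kb and 127 at 2-5 kb. The distance was also computed anew from each region centre to 32619 RefSeq TSSs on 19 chromosomes, and divided by the sequence that lies at each distance. This gave 1.36 regions per Mb at 0-1 kb (75 regions, Poisson 95% interval 1.07 to 1.70), 1.99 at 1-2 kb (103 regions, 1.62 to 2.41) and 3.33 at 2-5 kb (481 regions, 3.04 to 3.64). Farther out the density was 5.91 per Mb at 5-10 kb, 8.15 at 10-50 kb, 10.5 at 50-100 kb and 12.1 beyond 100 kb. Sequence within 5 kb of a TSS made up 10.1% of these chromosomes and held 2.95% of their regions. The intervals of neighbouring distances overlapped only between 0-1 and 1-2 kb among the bins up to 5-10 kb. By these TSSs 659 regions lay within 5 kb, among them 367 of the 498 members on these chromosomes, and 292 that were not members.

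**Figure D1:**
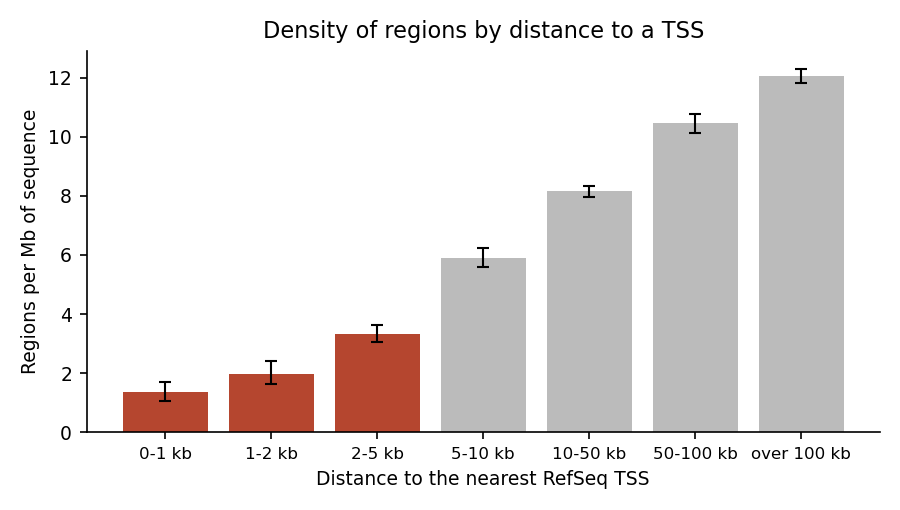
Regions per Mb of sequence (y axis) by distance from the region centre to the nearest RefSeq TSS (x axis), on 19 chromosomes; bars are densities and error bars Poisson 95% intervals, with the distances up to 5 kb in red and the rest in grey. Density was 1.36 per Mb at 0-1 kb, and each bin farther out was higher, up to 12.1 beyond 100 kb.

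More of the members lay upstream than downstream. There were 302 upstream of their TSS (59.3%, 55.0 to 63.5%) and 207 downstream of it, whereas 50% of the other regions were upstream. On X it was the other way, with 29 of 79 members upstream. Multicopy genes weigh in this X count: of 31 members at Btbd35f genes 9 lay upstream, and all 10 named for Gm10058 lay downstream. The remaining X members were not counted apart by side. On autosomes alone the upstream share was 63.5% (58.8 to 67.9%). By bin the upstream and downstream counts were 33 and 13 at 0-1 kb, 45 and 36 at 1-2 kb, and 224 and 158 at 2-5 kb. The upstream share was 71.7% (57.5 to 82.7%), 55.6% and 58.6% in that order, 54.5% at 5-10 kb and 49.8% beyond 10 kb. Upstream members were intergenic in 244 cases, intronic in 22, in the promoter class (up to 1 kb upstream) in 33, at a transcription termination site (TTS) in 2 and in an exon in 1. Downstream members were intronic in 132 cases, intergenic in 45, at a TTS in 24 and in an exon in 6. The 500-bp step with the most members, 47, ran from 2.5 to 2.0 kb upstream, and 20 of these were at Vmn1r vomeronasal receptor genes. The 500 bp on each side of the TSS held 12 upstream and 7 downstream. For 381 members the named gene had a RefSeq TSS on the same chromosome, and the TSS whose signed distance best matched the list's was taken. The 2 distances differed by over 10 kb for 58 members. The side was the same for 323 of the other 323, which the choice of the best match favours, so it is no independent check.

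**Figure D2:**
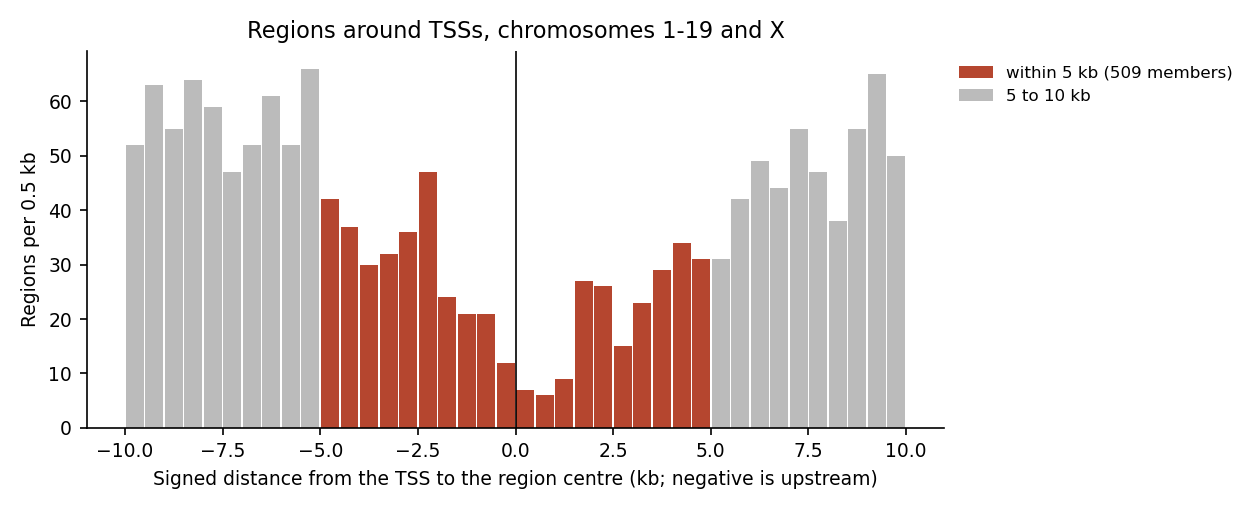
Number of regions per 0.5 kb (y axis) by signed distance from the TSS to the region centre (x axis, kb; negative values are upstream), with members in red and regions at 5 to 10 kb in grey. The counts dip at the TSS, with 12 and 7 regions in the 0.5 kb on its upstream and downstream sides. The highest step among the members is the 47 regions at 2.5 to 2.0 kb upstream, 20 of them at Vmn1r genes.

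LINE elements, which lay at the centre of most regions elsewhere, became rare towards the TSS. They were named at the centre of 4 of 46 regions at 0-1 kb (8.70%), 20 of 81 at 1-2 kb (24.7%) and 182 of 382 at 2-5 kb (47.6%), and of 57.3% at 5-10 kb and 74.1% beyond 10 kb. Over all members the share was 40.5% (206 regions, 36.3 to 44.8%), against 73.3% of the other regions (72.8 to 73.9%). The list names no repeat for regions of the promoter, TTS and exon classes. Without these classes the share was 46.5% of members (41.9 to 51.2%) and 73.5% of other regions, and in the bins it was 44.4% (4 of 9), 30.3% and 49.5%. At 0-1 kb the low share was therefore set by regions that carry no repeat name.

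Young L1 subfamilies led among the LINE members. L1Md_T lay at the centre of 111 members (21.8%, against 38.2% of other regions) and L1Md_A of 56 (11%, against 25.6%). Together they made up 81.1% of the LINE-centred members and 87.0% of the other LINE-centred regions. LTR elements were named at 18.5% of members (94 regions) and 17.2% of other regions. By bin they were named at 1 of 46 regions at 0-1 kb (2.17%), 19.8% at 1-2 kb, 20.2% at 2-5 kb, 27.5% at 5-10 kb and 16.7% beyond 10 kb. IAP elements held 34 members (6.68%, against 8.36%), and MERVL with its LTR MT2_Mm held 26 (5.11%, against 3.92%). Simple repeats were named at 62 members (12.2%, against 5.03%). By repeat unit, read on either strand, AGAT had 20, AAG 16 and AAAG 12. These units were common elsewhere too. Among the 1133 other regions at simple repeats, (TAGA)n was named at 247, (TCTA)n at 225, (GAA)n at 133 and (TTC)n at 118. There, (TTTC)n and (GAAA)n were named at 78 each. No repeat was named at 143 members (28.1%, against 3.42%), and within the intron and intergenic classes at 17.4% of members and 3.24% of other regions.

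**Figure D3:**
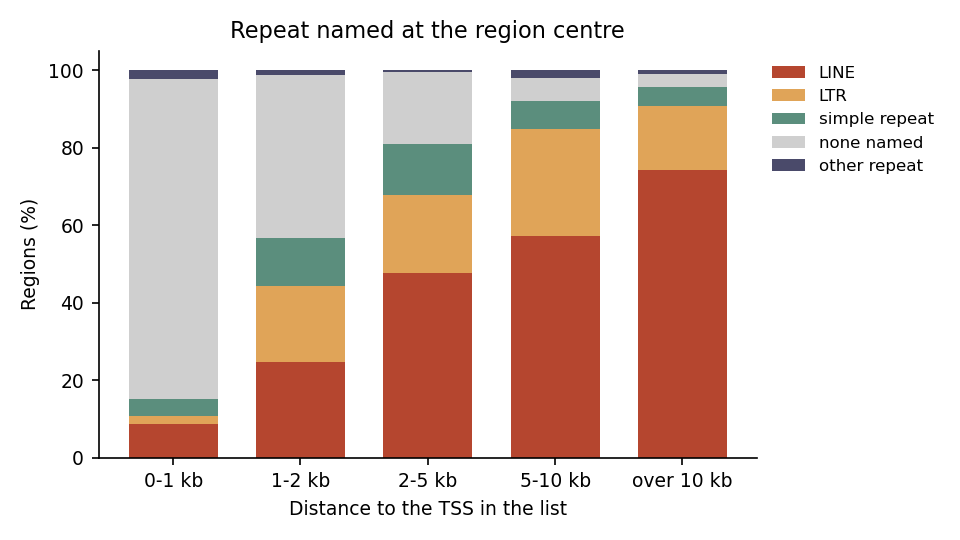
Percent of regions (y axis) by class of repeat named at the region centre, in 5 bins of distance to the TSS (x axis); colours stack to 100%, and none named includes the promoter, TTS and exon classes, for which the list gives no repeat. The LINE share was 8.70% at 0-1 kb, 24.7% at 1-2 kb, 47.6% at 2-5 kb, 57.3% at 5-10 kb and 74.1% beyond 10 kb.

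The authors' score, whose unit is not stated, was lower for members than for other regions. The median was 13.4 in members (interval of the median 12.5 to 14.4) and 19.3 in other regions, a difference of -0.53 in log2. By bin it was 8.18 at 0-1 kb (6.58 to 13.6), 11.3 at 1-2 kb (9.34 to 13.8) and 14.3 at 2-5 kb (13.2 to 15.7), then 17.8 at 5-10 kb and 19.3 beyond. The intervals of neighbouring bins up to 5 kb overlapped, and the interval of the log2 ratio of 0-1 kb over 2-5 kb, -0.81, ran from -1.25 to 0.04. Upstream and downstream members had medians of 13.8 (12.5 to 15.3) and 13.0 (10.8 to 14.4), with overlapping intervals. At 1-2 kb the median score per kb of region length was 21.7 upstream (15.9 to 27.2) and 13.5 downstream (11.4 to 15.3), and these intervals did not overlap. They did overlap at 0-1 kb, with 13.2 upstream (11.9 to 23.4) and 18.6 downstream (13.2 to 27.3), and at 2-5 kb, with 24 (22 to 25.8) and 22.3 (18.3 to 25.2). The sides at 1-2 kb also differed in make-up: no repeat was named at 10 of 45 upstream and 24 of 36 downstream members. Members with no repeat named had a median of 12.3 per kb. Of the 36, 9 were at genes of the Btbd35f family and 5 were named for Gm10058, all on X. Side was not tested apart from these.

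Score grows with region length, and what stood at the centre went along with it. Median length was 628 bp for members and 678 bp for other regions, and 44.6% of members were exactly 500 bp long, against 36.8%. Per kb of length the median score was 15.9 at 0-1 kb, 15.7 at 1-2 kb and 23.8 at 2-5 kb, with 21.8 for members and 28.2 for other regions. Among LINE-centred regions the median score was 18.6 in members (17.0 to 20.2) and 21.2 in other regions (21.0 to 21.7), and among LTR-centred regions 17.1 (15.3 to 21.4) and 19.5. At simple repeats it was 7.01 (6.37 to 8.49) in members and 6.80 (6.80 to 7.01) in other regions, and where no repeat was named 7.65 (6.58 to 8.92) and 7.86 (7.43 to 8.07). In the last 3 classes the members' interval held the other regions' median, and for LINE it did not.

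**Figure D4:**
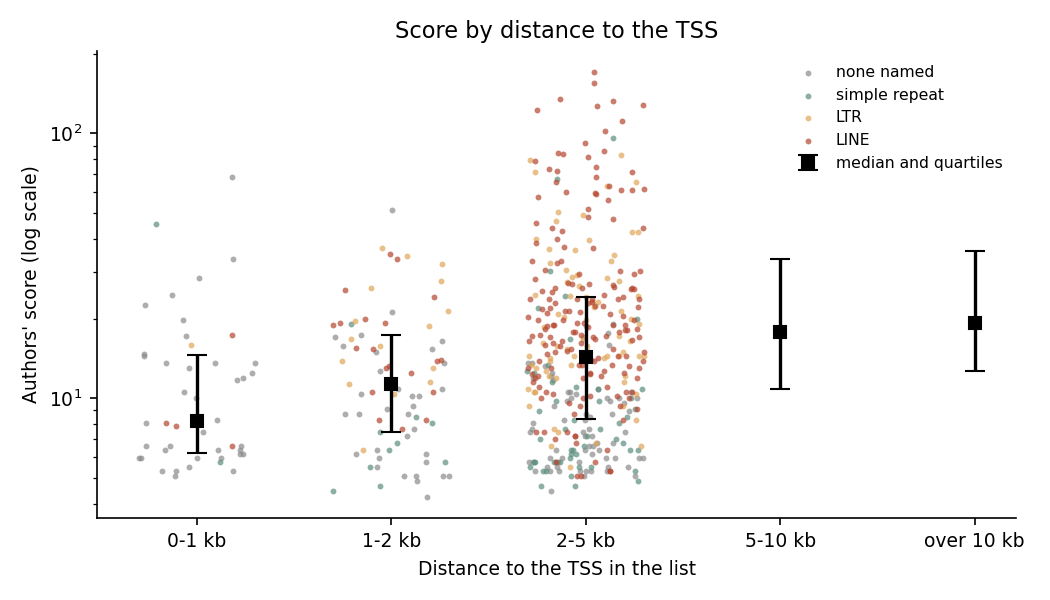
The authors' score (y axis, log scale) by distance to the TSS (x axis); points are the members, coloured by the repeat named at their centre (satellite and other rare classes left out), and black squares with bars are the median and quartiles of each bin, shown alone for regions beyond 5 kb. The medians were 8.18, 11.3 and 14.3 in the bins up to 5 kb, and scores over 100 stood at LINE elements at 2-5 kb.

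The members with the highest scores stood at 2-5 kb and were young L1 elements. The highest of all was 170.7, at an L1Md_T in the first intron of the uncharacterized 4930443O20Rik. Among genes with a descriptive symbol, the top 6 at 2-5 kb were at an L1Md_T for Slc25a2, a mitochondrial ornithine carrier (155.7), Lcorl, a nuclear receptor corepressor homologue (135.3), Utp3, of ribosomal RNA processing (132.7), and Sult1b1, a sulfotransferase (122.5). They were at an L1Md_A for Alpk1, a kinase of innate immunity (127.6), and the olfactory receptor gene Olfr1095 (126.6). At 1-2 kb, again among genes with a descriptive symbol, the top 6 were of mixed kinds. Dvl2, of Wnt signalling, had 51.4 at an exon of another transcript 1659 bp upstream. Car13, a carbonic anhydrase, had 35.0 at an L1Md_T, and Rbm25, a splicing regulator, had 34.4 at a MERVL-int. Mir383 had 33.6 at an L1Md_A, the steroid sulfate transporter gene Slc10a6 had 32.1 at an ORR1A3-int, and the vomeronasal receptor gene Vmn2r102 had 26.1 at an RLTR22_Mus. All 6 lay upstream of the TSS.

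The 33 members of the promoter class spanned a wide range of score per kb. Their scores ran from 5.10 at Mir206, a muscle microRNA, to the 68.6 of Fut8, and per kb from 8.98 at Gm2825 to 37.3 at Olfr8. After Olfr8 came the taste receptor gene Tas2r134 (31.5 per kb), Bckdhb (30.7), Fut8 (30.5) and Cd209c (29.1). In 9 of the 33 (27.3%) the score per kb was at or above the lower quartile of the other LINE-centred regions, 24. The same held for 2 of 7 in an exon (28.6%), 1 of 26 at a TTS, 2 of 34 intronic members with no repeat and 1 of 43 intergenic members with no repeat. With predicted genes left out, the regions closest to a TSS after Fut8 at 31 bp were those of Zfp40 and Mir6369. That of Zfp40, a zinc finger gene, lay 205 bp upstream (11.7), and that of Mir6369 254 bp downstream (8.07). Vmn1r166, 258 bp upstream (5.31), and Tex28, 260 bp downstream, followed. Among predicted genes, Gm16451 (178 bp upstream, 5.95) and Gm6164 (232 bp upstream, 6.58) were also this close. RefSeq places Mir6369 on another chromosome and Vmn1r166 1222 kb away. The region named for Vmn1r166 overlapped the RefSeq promoter window of Vmn1r138.

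Most nearest genes were protein-coding. The list gave this type for 455 members (89.4%, 86.4 to 91.8%), against 80.7% of other regions, and noncoding RNA for 46 (9.04%, against 16.4%). A further 7 were pseudogenes and 1 a snoRNA. By RefSeq biotype, 26 members had a lncRNA and 16 a microRNA as nearest gene. Symbols of predicted genes made up 30.3% of members and 26.3% of other regions. The members named 425 genes, of which 370 had 1 region, 43 had 2 and 12 had 3 or more. The named gene lay within 10 kb of the region in RefSeq for 437 members, elsewhere on the chromosome for 66, on another chromosome for 5, and was not in the table for 1. The median score was 14.4 where the gene was in place and 8.82 where it was elsewhere on the chromosome. Genes of near-identical copies are therefore uncertain by name.

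Of 21631 protein-coding genes, 379 were nearest to a member, or 1.75%, and 357 (1.65%) with the gene in place; 38 (0.176%) had a region within 1 kb. The vomeronasal and olfactory receptor families stood above that share. Vmn1r genes, vomeronasal receptors for pheromones, had 29 of 231 (12.6%, 8.88 to 17.4%), of which 20 in place, and Vmn2r genes 14 of 124 (11.3%, 6.85 to 18.1%). Olfactory receptor genes had 50 of 1110 (4.50%, 3.43 to 5.89%), all 50 in place. Taste receptor genes had 2 of 38 (5.26%, 1.46 to 17.3%), an interval that holds the background. The vomeronasal and olfactory receptor genes together were named for 107 of the 509 members. Zfp zinc finger genes had 11 of 400 (2.75%, 1.54 to 4.86%), an interval that holds the background, and so did that of the solute carriers, with 5 of 375 (1.33%). Lectin genes of the Cd209 and Clec symbols had 5 of 40 (12.5%, 5.46 to 26.1%), with the highest score, 26.5, at Clec10a. Sult sulfotransferase genes had 2 of 21 (9.52%, 2.65 to 28.9%). The intervals of these 2 families lie above the background. Keratin genes had 0 of 112, Klr genes 0 of 29 and Ugt genes 0 of 22. Genes of a family lie in clusters and are not independent, which the intervals leave out.

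**Figure D5:**
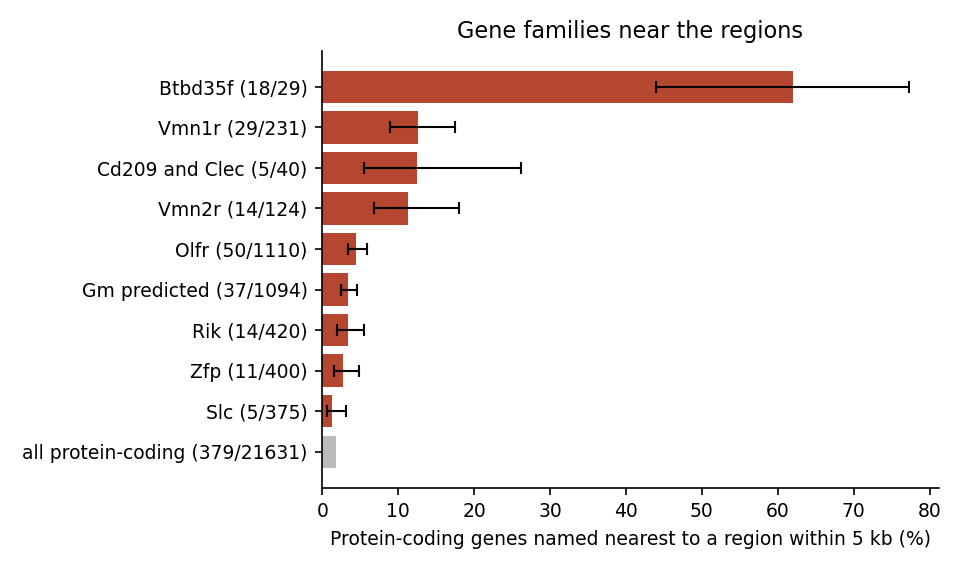
Percent of protein-coding genes that were nearest to a region within 5 kb (x axis), by gene family (y axis, genes with a region over genes in the family), for families with 3 or more members; red bars are families with Wilson 95% intervals and the grey bar is all protein-coding genes, 1.75%. Btbd35f, added after its values were seen, stood at 62.1%, Vmn1r at 12.6% and Olfr at 4.50%.

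The receptor families differed in what lay at the centre. Of 53 members at olfactory receptor genes, 34 were centred on a LINE, and their median score was 15.3, up to 126.6 at Olfr1095. Of 39 at Vmn1r genes, 5 were centred on a LINE, 32 lay upstream, and the median was 6.58; the highest, 65.4, was a MERVL-int region 2834 bp downstream of the start of Vmn1r57. Of 15 at Vmn2r genes, 3 were centred on a LINE, 4 lay upstream, and the median was 5.95. Both vomeronasal medians were below 12.7, the lower quartile of the other regions, whose lowest score was 4.25. Of the 11 Zfp members, 10 lay upstream, and scores ran from 4.67 to 49.3, the highest at an MMERVK10C-int upstream of Zfp488.

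Copies of a family carried regions at the same offset from the TSS, a pattern noticed in the data. Of the 39 Vmn1r members, 20 lay between 2410 and 2009 bp upstream, at 16 named genes; 19 of them had no repeat named, and their scores ran from 5.10 to 12.1. Of the 509 members, 47 (9.23%) lay in that 500-bp step, and these 20 are among the 47. Of the 15 Vmn2r members, 6 lay 2040 to 2476 bp downstream. Olfactory receptor members had no such step: the fullest held 6 of 53.

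The family with the highest share among those counted lay on X. It was added after its values were seen, so its rank beside the preset families is a description only. Btbd35f genes, a BTB-domain family that RefSeq names where the list gives Gm symbols, had a member at 18 of 29 genes (62.1%, 44.0 to 77.3%), 15 of them in place. Their 31 members scored between 5.31 and 19.5, and 0 were centred on a LINE. Of these, 10 lay 2003 to 2336 bp and 9 lay 1813 to 1985 bp downstream of the TSS, and all 19 had no repeat named. The highest score, 19.5, stood at Gm2933, now Btbd35f14. X had 79 members in all, 2.46% of its regions. Apart from Btbd35f, 14 were named for the predicted genes Gm10058, Gm10486 or Gm10488 and 34 for other genes. The median score on X was 11 in members (10.2 to 14.0) and 14.9 in other regions (14.2 to 15.3), and on autosomes 13.6 (12.5 to 14.7) and 20 (19.7 to 20.4). Among autosomes, chromosome 7 had the most members, 87 (6.63% of its regions), of which 49 at vomeronasal receptor genes, and the autosomal median was 1.93%.

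Among the 12 genes nearest to 3 or more members, only Fut8, Rbm25 and Arg2 had every region in place. Gm10058 had 10, with scores from 4.88 to 9.98, of which 5 lay 1652 to 1934 bp and 4 lay 4292 to 4418 bp downstream; RefSeq places the gene itself elsewhere for all 10. Amy2a5, a pancreatic amylase gene, had 9, with scores from 8.49 to 13.2 and 1 of them in place; 4 lay 3198 to 3277 bp and 3 lay 4811 to 4918 bp downstream. Vmn1r155 had 3, with scores of 12.5, 12.1 and 9.34, and 0 in place. Gm10377 had 5 (5.95 to 11.7), and Gm3706, now Btbd35f3, had 4 (5.52 to 10.4). Rbm25 and Arg2, a mitochondrial arginase, had 3 each, all in place and all on MERVL-int. The Rbm25 scores were 34.4, 24.4 and 14.4, and the Arg2 scores 33.1, 20 and 15.7. Gaps between neighbouring regions were 1.32 and 0.519 kb at Rbm25 and 0.58 and 0.73 kb at Arg2; the list does not say whether the regions at a gene belong to 1 element. Bckdhb had 2: the promoter region shown above and an IAPEz-int region centred 2900 bp upstream (46.9), with 1.33 kb between them.

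No gene of the testis lists was nearest to a member. Of 88 genes from lists for spermatogonia, meiotic prophase, spermiogenesis, the piRNA pathway, and Sertoli and Leydig cells, 0 were nearest to a member, which allows a share of up to 3.41%. At the background share, 1.54 would be. Within 10 kb there were 3 of 88 (3.41%), against 4.66% of all protein-coding genes at that distance, a share that would give 4.10. Hsd3b1, a steroidogenic enzyme of Leydig cells, had an L1Md_A region 5401 bp upstream (90.9), and Pgk2, the phosphoglycerate kinase of spermatids, an L1Md_A region 8299 bp upstream (36.3). Cyp11a1, which starts steroid synthesis, had a (GAA)n region 8029 bp downstream (5.52).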

How the data were processed

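Per the labels, 3 SPOC1 ChIP and 3 input libraries were made from mouse testis. Per the submitters' processing notes, Bowtie2 2.2.2, SAMtools, HOMER 4.6 and build mm10 were used, with no roles given; no source used here says how peaks were called or libraries pooled. As a result file, the authors deposited 1 list of regions, annotated by HOMER per the file headers. Its score per region is the authors' own, of unstated unit, and was used only within the list. Its distance to the TSS is to the region centre.

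From the list, regions were counted by distance, side, class at the centre, gene and chromosome, with Wilson 95% intervals for shares and order-statistic 95% intervals for medians. No test was run, since regions are not replicates and no library values were given. Shares of gene types used the types given in the list. Biotypes, the set of all protein-coding genes, positions and promoter windows came from RefSeq tables of GRCm38.p6, which mm10 corresponds to. The promoter table used has 32619 TSSs on 19 chromosomes, with chromosome 18 not used. The nearest-TSS step, tested on simulated data, recovered 3000 of 3000 regions. Sites whose named gene lay over 10 kb away in RefSeq were counted as out of place. Where the named gene had a promoter entry on the same chromosome (381 members), the list's distance was within 5 bp of the RefSeq one for 295.

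The regions named were the 6 highest scores in each distance bin and the 5 closest to a TSS (predicted genes left out), genes with 3 or more members (at most 10), the top member of each family with 3 or more members, and those next to the 5000 bp limit. Promoter windows were shown for the first bin and the closest. Other names were chosen after their values were seen, as were Btbd35f, the H2al and H2bl family and the steps of offset. The members and lists were chosen with earlier results of these data known. Alternatives covered the score threshold, chromosomes, window, 1 region per gene, score per kb, length, receptor genes, repeat class and recomputed distance. Counting was done in Python 3.11.15 with pandas 2.3.3 and NumPy 2.4.6, intervals came from SciPy 1.17.1, and plots from matplotlib 3.10.9.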

Additional observations from a re-analysis of the deposited data

How the results depend on the processing

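Only the upstream share and the 2 score ratios have a direction, and none of them changed it under any alternative run. X alone, where most members lay downstream, was not among the runs. In 32 runs the value stayed within the main result's interval, or near the main count, and in 18 it moved beyond. With the 50% of regions with the higher score, the members numbered 159, the upstream share was 65.4%, the LINE share 61.0%, the log2 ratio of median score of members over other regions -0.27, the protein-coding share 83.6% and the share of protein-coding genes with a region 0.582%. With a window of 2 kb there were 127 members, a LINE share of 18.9%, a ratio of -0.85 and 0.448% of genes. With a window of 10 kb there were 1556, 51.8%, -0.26 and 4.66%. Leaving out the promoter, TTS and exon classes gave a LINE share of 46.5%. The ratio of members over other regions was -0.37 per kb of length, -0.19 among LINE-centred regions and -0.22 among intronic and intergenic regions with no repeat, the last chosen after the data were seen, with an interval of -0.44 to 0.08. The cause of these shifts was not tested. The ratio of 0-1 kb over 2-5 kb ran from -1 (1 region per gene) to -0.08 (higher-scoring 50%). Recomputed distances gave 659 members, autosomes alone 430, and members with the named gene in place 437, the last chosen after the data were seen. No paired analysis was possible because values per library were not in the table analysed here, and leaving out each replicate was not run for the same reason. The depth of each library is unknown, which limits what low scores can show.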

Other observations

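Outside the testis lists counted above, several members lay at genes known from germ cells or from reproduction; these genes were picked after their values were seen, and the values are a description. Catsper3, a subunit of the sperm calcium channel, had IAPEz-int regions 2924 bp (score 22.1) and 1406 bp (13.8) upstream of its TSS. Crisp2, a cysteine-rich secretory protein of the acrosome, had an L1Md_T region 2987 bp upstream (52.0). Crisp1, its relative in the epididymis, had L1Md_T regions 3176 bp (17.4) and 4622 bp (21.4) downstream, in its first intron.

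On X, the histone variant genes listed as Gm14501 and Gm5132, now H2al1k and H2al1o, had an IAPEz-int region 2162 bp upstream (20.2) and an L1Md_T region 4461 bp downstream (12.7). Slxl1, a multicopy gene of spermatids, had an L1Md_A region 2694 bp upstream (15.3). The homeobox genes Rhox2d and Rhox4f had an L1Md_T region 4057 bp upstream (27.2) and an L1Md_A region 4899 bp upstream (7.43). Prame had L1Md_T and L1Md_A regions 3068 bp (14.0) and 4684 bp (11) upstream, and Magea1 an L1Md_T region 4248 bp downstream (13.0). By family, protein-coding genes with a member numbered 2 of 33 for Rhox (6.06%, 1.68 to 19.6%), 1 of 22 for Mage, 1 of 48 for Pramel and 1 of 15 for Xlr and Slx, each with an interval that holds the 1.75% of all protein-coding genes. For the H2al and H2bl histone variant genes, a family added after the list was seen, the number was 2 of 17 (11.8%, 3.29 to 34.3%). Since this family was chosen from these data, its interval cannot be set against the 1.75%.

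The highest score per kb among these picks was at Tcstv3 on chromosome 13, where a (TTAGGG)n region of 339 bp, 4599 bp downstream, had a score of 95.8, or 282.6 per kb.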
